A study of Mus musculus with 549 samples.

Results

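The 35 interferon-stimulated genes followed here are genes whose transcription rises when cells sense interferon, and they were chosen by name: all 35 symbols were found among the 23385 named genes of each of the 12 deposited tables, and all 35 passed the filter on low values in every table. By role they are 21 effectors, 5 GTPases, 4 sensors of nucleic acid, 3 transcription factors and 2 chemokines. Type I interferons bind a receptor on almost every cell and, through Jak kinases, assemble a complex that contains Stat2 and Irf9 and binds the interferon-stimulated response element (ISRE) in promoters. Interferon gamma, made mainly by T and natural killer cells, acts on a different element, the gamma-activated site (GAS), and drives chemokines and GTPases most strongly. In joint tissue these genes are also read as a measure of interferon tone in resident and marrow-derived immune cells, and interferon signalling restrains the formation of osteoclasts.

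The samples came from male C57BL/6J mice that received parathyroid hormone (PTH) or its vehicle for 8 weeks. At 26 weeks of age, before any loading, the groups were vehicle (V0) and PTH (P0). After that the left tibia was loaded cyclically for 1 week (mice aged 27 weeks) or 2 weeks (28 weeks), while mice pretreated with vehicle or PTH received either vehicle or the bisphosphonate alendronate. This gave 4 groups at each time, called here vehicle, PTH, alendronate, and PTH then alendronate. In every mouse the right limb was the unloaded contralateral control, so loading was compared between limbs of mice on the same drugs. Tibial cartilage, cortical bone, cancellous bone and the inguinal lymph nodes were each sequenced from the 3' end of transcripts. All mice are of the same inbred strain, which carries a defective Mx1 gene, so Mx1 was read here as a transcript only.

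Among 549 samples described, 505 had a column in a table and the other 44 were not analysed here. Depth ranged from 3630 to 3557793 reads a library (median 1551090). The 28 libraries under 100000 reads were left out, which left 477 with at least 127524. Tables were scaled separately by the authors, so tests were made only within a table. Levels are log2(normalised count + 1) throughout, and differences are on that scale, which understates the change of low genes. The labels name no mouse, and the mouse of each library was inferred from the code in its title. In cartilage and lymph node at 2 weeks the 2 series of codes followed alendronate exactly, so alendronate and code series cannot be told apart there. In bone at 2 weeks alendronate libraries had codes beginning with A or B, and the others plain codes or codes beginning with C or D. The series term separated only plain from letter codes, so alendronate and these runs of codes cannot be told apart either. In cortical bone at 1 week, 1 library labelled left carries a code that would fit a right limb, and its label was kept.

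Of the 35 genes, 27 had a promoter entry in the RefSeq table (GRCm38.p6), covering 250 bases before to 50 bases after the transcription start. The ISRE core GAAANNGAAA, searched on both strands, occurred in 15 of the 27 promoters (55.6%), against 1079 of 27025 genes (3.99%). The GAS core TTCNNNGAA, which reads the same on both strands, occurred in 4 of 27 (14.8%; Ifi35, Ifit2, Igtp and Oas1a), against 9.55% of all genes. A match describes the letters in this window and shows no binding. The promoters below, printed 5' to 3' on the gene's own strand with ISRE cores in capitals, are those of genes that the results turn on: Isg15 with 3 overlapping cores, Rsad2 and Oas3 with 1 core each, Ifit3 with 2, Gbp2 with 1, and Cmpk2 and Cxcl9 with 0.
Isg15, chr4:156200769-156201068: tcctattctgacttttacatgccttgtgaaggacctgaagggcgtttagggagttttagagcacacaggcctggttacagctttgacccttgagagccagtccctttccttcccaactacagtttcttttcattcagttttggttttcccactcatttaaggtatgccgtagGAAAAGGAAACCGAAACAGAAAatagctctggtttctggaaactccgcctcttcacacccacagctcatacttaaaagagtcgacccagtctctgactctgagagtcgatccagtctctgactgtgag
Rsad2, chr12:26456403-26456702: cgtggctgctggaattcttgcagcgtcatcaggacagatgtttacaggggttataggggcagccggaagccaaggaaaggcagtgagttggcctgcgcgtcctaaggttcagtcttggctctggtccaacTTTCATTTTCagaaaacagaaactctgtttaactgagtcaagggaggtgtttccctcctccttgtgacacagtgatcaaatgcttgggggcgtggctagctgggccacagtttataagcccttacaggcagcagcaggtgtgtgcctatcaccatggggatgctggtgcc
Oas3, chr5:120777610-120777909: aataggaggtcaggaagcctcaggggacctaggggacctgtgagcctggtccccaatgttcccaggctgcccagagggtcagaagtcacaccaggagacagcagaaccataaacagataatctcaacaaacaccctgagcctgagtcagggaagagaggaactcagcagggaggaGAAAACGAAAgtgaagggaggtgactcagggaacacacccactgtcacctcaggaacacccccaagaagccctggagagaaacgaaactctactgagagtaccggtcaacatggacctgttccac
Ifit3, chr19:34583279-34583578: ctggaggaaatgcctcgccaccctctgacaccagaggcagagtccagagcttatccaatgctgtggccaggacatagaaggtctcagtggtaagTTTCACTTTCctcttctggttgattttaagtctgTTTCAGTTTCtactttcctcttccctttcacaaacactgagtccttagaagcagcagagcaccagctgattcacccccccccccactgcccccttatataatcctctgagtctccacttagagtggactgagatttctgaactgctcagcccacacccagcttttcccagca
Gbp2, chr3:142620413-142620712: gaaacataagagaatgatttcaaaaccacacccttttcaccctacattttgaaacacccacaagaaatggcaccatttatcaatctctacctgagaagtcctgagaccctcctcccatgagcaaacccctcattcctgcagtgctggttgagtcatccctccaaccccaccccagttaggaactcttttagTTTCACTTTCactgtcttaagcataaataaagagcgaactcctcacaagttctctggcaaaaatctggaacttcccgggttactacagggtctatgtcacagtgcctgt
Cmpk2, chr12:26468965-26469264: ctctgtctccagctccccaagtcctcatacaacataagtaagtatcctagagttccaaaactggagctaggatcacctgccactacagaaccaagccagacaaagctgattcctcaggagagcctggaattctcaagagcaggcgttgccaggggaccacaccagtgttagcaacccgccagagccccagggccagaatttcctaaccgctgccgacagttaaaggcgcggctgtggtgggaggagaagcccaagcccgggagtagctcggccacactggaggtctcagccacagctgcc
Cxcl9, chr5:92328030-92328329: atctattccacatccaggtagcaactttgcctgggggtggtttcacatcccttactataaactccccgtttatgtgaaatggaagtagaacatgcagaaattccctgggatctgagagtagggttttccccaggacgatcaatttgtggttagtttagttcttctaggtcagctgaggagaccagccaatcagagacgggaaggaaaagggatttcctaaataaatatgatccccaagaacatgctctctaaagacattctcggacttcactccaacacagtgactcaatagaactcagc
Isg15 lies on chromosome 4 (minus strand), Rsad2 on chromosome 12 (minus), Cmpk2 beside it on the opposite strand, Oas3 and Cxcl9 on chromosome 5 (minus), Ifit3 on chromosome 19 (plus) and Gbp2 on chromosome 3 (plus). Counted from the transcription start, the first of the Isg15 cores began at position -78 and the last at -66, in Rsad2 at position -120, in Oas3 at -75, in Ifit3 at -156 and -122, and in Gbp2 at -59. The genes are spread over 12 chromosomes. The largest groups are 7 members on chromosome 5 (Cxcl9, Cxcl10 and 5 synthetase genes) and 6 on chromosome 11.

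Before loading, members differed widely in abundance between tissues. Expressed as a share of the library (CPM, reads scaled to a common library size), 30 of the 35 had their highest mean in the lymph node, 3 in cancellous bone (Rsad2, Oas2 and Oas3) and 2 in cartilage (Isg15 and Cmpk2). The median of the members' means was 38.9 CPM in the node against 12.3 in cartilage, 13.6 in cortical bone and 13.9 in cancellous bone. A share of the library can be set side by side across tables but was not tested, and in bulk tissue fewer cells of a type and less RNA per cell cannot be told apart.

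Rsad2, which encodes viperin, a radical enzyme that makes a chain-terminating nucleotide, was the most abundant member in the joint. Its mean was 261 CPM ± 143 (SD, n = 30 libraries) in cartilage, 289 ± 117 (n = 16) in cortical bone, 381 ± 136 (n = 15) in cancellous bone and 43.4 ± 41.9 (n = 32) in the node. Its highest node library was at 228 CPM and its lowest cancellous library at 219 CPM. Isg15, the ubiquitin-like modifier that gives the family its name, averaged 101 CPM ± 55.2 in cartilage and at most 55.4 in the other 3 tissues. Ifit3, a member of the tetratricopeptide family that binds foreign RNA, showed the reverse order, with 70.4 CPM ± 85.5 in the node and 8.28 to 10.0 in the joint tissues.

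Cxcl9, a chemokine that draws activated T cells and is driven by interferon gamma, averaged 153 CPM ± 56.9 in the node, 54.6 ± 23.2 in cancellous bone, 40.9 ± 17.5 in cortical bone and 21.7 ± 15.0 in cartilage. Gbp2, a guanylate-binding GTPase, averaged 72.1 CPM ± 19.4 in the node and 15.2 to 16.4 elsewhere. At the other end Oas1a, an oligoadenylate synthetase, stayed between 0.910 and 2.23 CPM in all 4 tissues, so its differences rest on few reads. Reads of Ifit3, Oas1a and Trim30a may be shared with close copies (Ifit3b, Oas1g, Trim30d), and their values are uncertain to that extent.

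The interferon genes themselves were almost unread. Of 11 listed ligands, 7 to 10 were at 0 in all kept libraries of a table, among them Ifna1, Ifna2, Ifna4, Ifna5 and Ifna6 in every table and Ifnb1 in every table but cortical bone at 1 week. At these depths their changes were not detectable. The chondrocyte list was present in cartilage (14 of 14 genes in each table), while 9 or 10 of its 14 genes were at 0 in most node libraries. All 13 neutrophil genes were also read in cartilage at every time. In vehicle cartilage before loading their mean level was 9.60, above the 6.26 of the chondrocyte list. Which cells gave the members' reads in cartilage was not tested.

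The first comparison asked whether 8 weeks of PTH changed the genes before any loading. In cartilage, 7 of the 35 members were lower after PTH and 0 were higher: Rsad2, Isg15, Irf7, Oas3, Irf9, Parp14 and Trim30a. Among all 13925 genes tested 5.58% were lower, so the members' 7 of 35 was a larger share than the background. Of the 35, 31 had a negative difference, with a median of -0.45 against 0.03 over all genes. In the other 3 tissues no member passed the threshold (limma, adjusted p under 0.05).

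In cartilage Rsad2 ran from 7.32 to 9.72 in vehicle mice (median 8.30; 15 libraries of 8 mice) and from 5.43 to 8.27 in PTH mice (median 7.01; 15 libraries of 8 mice). The groups overlapped, with the PTH median below the lowest vehicle library. The fall was -1.03 ± 0.24 (SE, limma, adjusted p = 0.00573), a fold of 0.491. Isg15 ran from 6.07 to 7.66 in vehicle mice (median 6.94) and from 3.48 to 7.15 in PTH mice (median 5.94). Its PTH libraries reached well below every vehicle library, but the upper ones lay within the vehicle range. Isg15 fell by 1.11 ± 0.26 (limma, adjusted p = 0.00638).

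Irf7, the transcription factor that amplifies type I interferon production, ran from 3.00 to 5.77 (median 4.09) in vehicle and from 1.48 to 4.53 (median 3.05) in PTH cartilage. The ranges overlapped, and the difference was -1.13 ± 0.28 (limma, adjusted p = 0.00850). Oas3, a synthetase whose product activates an RNA-degrading enzyme, ran from 2.17 to 5.63 (median 3.95) and from 0 to 4.26 (median 2.64), with 1 PTH library at 0. Its difference was -1.20 ± 0.32 (limma, adjusted p = 0.0119). The other members that fell, Irf9, Parp14 and Trim30a, did so by 0.62, 0.54 and 0.50.

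**Figure D1:**
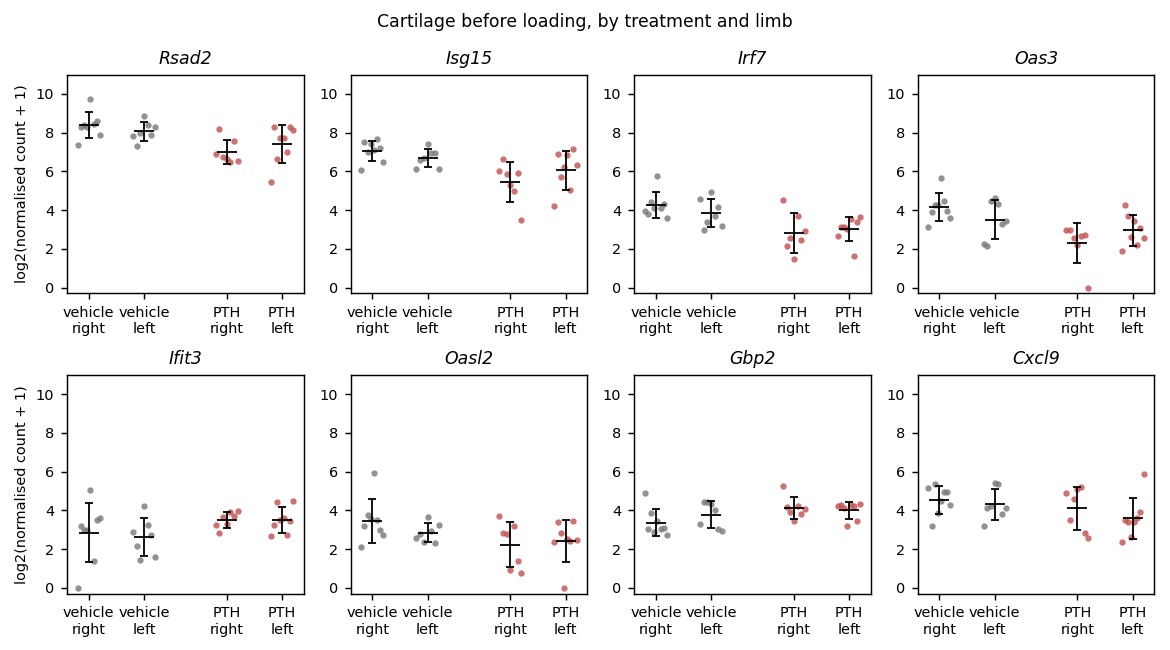
Cartilage before loading: each point is 1 library, in log2(normalised count + 1), by treatment and limb, with the group mean and SD as bars. Rsad2, Isg15, Irf7 and Oas3 (top) had lower PTH means in both limbs, while Ifit3, Oasl2, Gbp2 and Cxcl9 (bottom) did not pass the threshold.

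Not every member followed. Ifit3 ran from 0 to 5.06 (median 2.98) in vehicle and from 2.69 to 4.49 (median 3.51) in PTH cartilage, a difference of 0.80 ± 0.35 (limma, adjusted p = 0.126). Oasl2, a synthetase-like protein, differed by -0.83 ± 0.36 (limma, adjusted p = 0.117), Gbp2 by 0.49 ± 0.23 (adjusted p = 0.157) and Cxcl9 by -0.58 ± 0.32 (adjusted p = 0.240). By role, 5 of 21 effectors and 2 of 3 transcription factors fell, while 0 of 5 GTPases, 0 of 4 sensors and 0 of 2 chemokines passed the test.

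Beyond the 35 members, 3 of 24 other type I targets tested fell and 0 rose, and 4 of 20 interferon gamma targets fell and 0 rose. Irf8, a transcription factor of myeloid and dendritic cells, fell by 1.05 ± 0.24 (limma, adjusted p = 0.00527), Isg20, an RNA exonuclease, fell by 0.91 ± 0.23 (adjusted p = 0.00975) and Ptpn6, a phosphatase of blood cells that damps receptor signalling, fell by 0.88 ± 0.23 (adjusted p = 0.0115). Of the listed receptors 0 of 6 passed.

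Markers of other cells moved with these members. In PTH cartilage 11 of 13 neutrophil genes fell (median -1.09), and their mean level was 6.46 to 9.66 in PTH libraries against 8.68 to 10.5 in vehicle libraries. Across libraries within groups, the mean of the neutrophil list had r = 0.69 with Rsad2 and 0.79 with Isg15 (n = 30, a description across libraries that share mice and scaling). With the mean of the 35 members its r was 0.67, near the 0.62 of the T and natural killer cell list. For macrophage genes it was 0.56, and for B and plasma cell genes 0.50. Of 11 osteoblast and osteocyte genes 8 rose, and 7 of 11 adipocyte genes rose, with right PTH libraries reaching 7.57 for the adipocyte list against 4.57 in the left. The part of these cells in the members' fall was not tested.

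The call in cartilage rested on some choices. With the 2 shallowest libraries put back, 0 members passed, and in left limbs alone 0 passed, against 6 in right limbs alone. Without the left vehicle library replicate 10, or without the right PTH library replicate 15, 4 passed instead of 7.

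In cortical bone before loading (7 vehicle libraries of 4 mice, 9 PTH libraries of 5) Isg15 differed by 0.28 ± 0.56 (limma, adjusted p = 1.00), and the smallest p among members was that of Ifit2, at 0.95 ± 0.44 (adjusted p = 1.00). Irf7 ran from 2.46 to 5.44 (median 4.61) in vehicle and from 2.70 to 6.17 (median 4.58) in PTH libraries. Ifit3 differed by 0.15 ± 0.55, Oasl2 by -0.68 ± 0.61, Gbp2 by -0.25 ± 0.57 and Cxcl9 by -0.61 ± 0.57. The adjusted p was 1.00 for each of these.

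In cancellous bone (7 libraries of 4 mice against 8 of 5) Isg15 ran from 4.20 to 6.61 (median 6.04) in vehicle and from 4.06 to 7.48 (median 6.24) in PTH libraries, a difference of 0.16 ± 0.46 (limma, adjusted p = 0.971). Oasl2 had the smallest p, with a difference of 1.62 ± 0.75 (adjusted p = 0.935). Its vehicle libraries spread from 0 to 5.41, which overlapped the PTH range of 3.13 to 6.29. Ifit3 differed by 1.06 ± 0.68, Irf7 by -0.032 ± 0.80, Gbp2 by 0.24 ± 0.69 and Cxcl9 by 0.031 ± 0.34.

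In the lymph node (16 libraries of 8 mice in each group) Isg15 differed by 0.13 ± 0.33 (limma, adjusted p = 0.877), with 3.64 to 8.50 in vehicle and 4.74 to 7.48 in PTH libraries. The smallest p was that of Gbp3, at -0.33 ± 0.13 (adjusted p = 0.208). Ifit3 differed by 0.49 ± 0.40, Irf7 by 0.49 ± 0.25, Oasl2 by 0.11 ± 0.29, Gbp2 by -0.26 ± 0.12 and Cxcl9 by -0.29 ± 0.17. Over cortical bone, cancellous bone and node together, 6 member tests had an unadjusted p under 0.05, and 0.222% of all gene tests passed the threshold either way. Whether the response to PTH differed between cartilage and these tissues was not tested, since the tables were scaled separately.

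The next comparison set the loaded left limb against the contralateral right limb. In cartilage some members were lower on the loaded side. Averaged over the 4 treatments, an average that was added after the single treatments had been seen, 6 of 35 fell at 1 week (Cmpk2, Rsad2, Ifi47, Igtp, Oas3 and Isg15) and 10 of 35 at 2 weeks (Isg15, Cxcl9, Rsad2, Trim30a, Ifi47, Cmpk2, Igtp, Ifi35, Xaf1 and Zbp1), and 0 rose. Cartilage changed broadly with loading: 11.0% of all genes were lower at 1 week and 9.69% at 2 weeks, so 6 of 35 and 10 of 35 stood above that background by a few genes. The median over members was -0.14 at 1 week and -0.41 at 2 weeks, against 0.0050 and -0.011 over all genes.

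Rsad2 at 1 week, on the contralateral side, ran from 8.50 to 9.45 (median 9.24) in vehicle mice, from 8.49 to 9.91 (median 9.34) in PTH mice, from 8.51 to 10.09 (median 9.36) in alendronate mice and from 7.83 to 10.31 (median 9.10) in PTH then alendronate mice. On the loaded side it ran from 8.08 to 9.41 (median 9.20), 6.71 to 9.37 (median 8.28), 5.97 to 9.83 (median 8.43) and 7.08 to 8.62 (median 7.94) in the same order. The loaded ranges reached lower in all 4 treatments and still overlapped the contralateral ones. The difference was -0.91 ± 0.18 (limma, adjusted p = 7.98e-05), a fold of 0.532, and the loaded side was lower in 25 of 28 mice with both limbs.

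At 2 weeks contralateral Rsad2 ran from 8.86 to 9.96 (median 9.73) in vehicle, 6.77 to 10.06 (median 9.47) in PTH and 7.69 to 9.74 (median 8.84) in alendronate mice, and was 8.44, 9.24, 9.49 and 10.95 in the 4 PTH then alendronate libraries. Loaded Rsad2 ran from 5.33 to 9.36 (median 8.51), from 4.77 to 10.90 (median 8.09), and was 6.51, 6.63, 6.73, 7.89 and 8.16 in the 5 alendronate libraries and 7.12 to 10.62 (median 8.66) in PTH then alendronate. The loaded medians were below the contralateral ones in all 4 treatments, with overlapping ranges. The difference was -1.28 ± 0.30 (limma, adjusted p = 0.00130), and 19 of 24 mice were lower on the loaded side.

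Cmpk2, a mitochondrial nucleotide kinase whose gene neighbours Rsad2, had the smallest p at 1 week. Its contralateral medians were 5.83, 5.87, 5.63 and 5.90 and its loaded medians 5.27, 4.84, 4.67 and 4.80, in the order vehicle, PTH, alendronate, PTH then alendronate. The loaded side was lower in 23 of 28 mice, by 0.98 ± 0.18 on average (limma, adjusted p = 2.27e-05). At 2 weeks Cmpk2 fell by 0.90 ± 0.25 (adjusted p = 0.00643), with 19 of 24 mice lower.

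Isg15 had the smallest p at 2 weeks. Its contralateral range was 6.09 to 7.08 (median 6.64) in vehicle, 5.04 to 7.21 (median 6.72) in PTH and 6.62 to 8.48 (median 7.34) in alendronate mice, with 6.78, 7.17, 8.05 and 8.18 in PTH then alendronate. On the loaded side it was 4.62 to 6.59 (median 5.82), 5.01 to 6.76 (median 5.49), then 4.93, 5.28, 6.36, 6.46 and 8.12 in alendronate, and 4.99 to 8.11 (median 5.92) in PTH then alendronate. Loaded medians were again the lower ones in each treatment. The difference was -1.03 ± 0.21 (limma, adjusted p = 0.000232), a fold of 0.490, with 20 of 24 mice lower. At 1 week Isg15 fell by 0.55 ± 0.20 (adjusted p = 0.0390), with 18 of 28 mice lower.

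**Figure D2:**
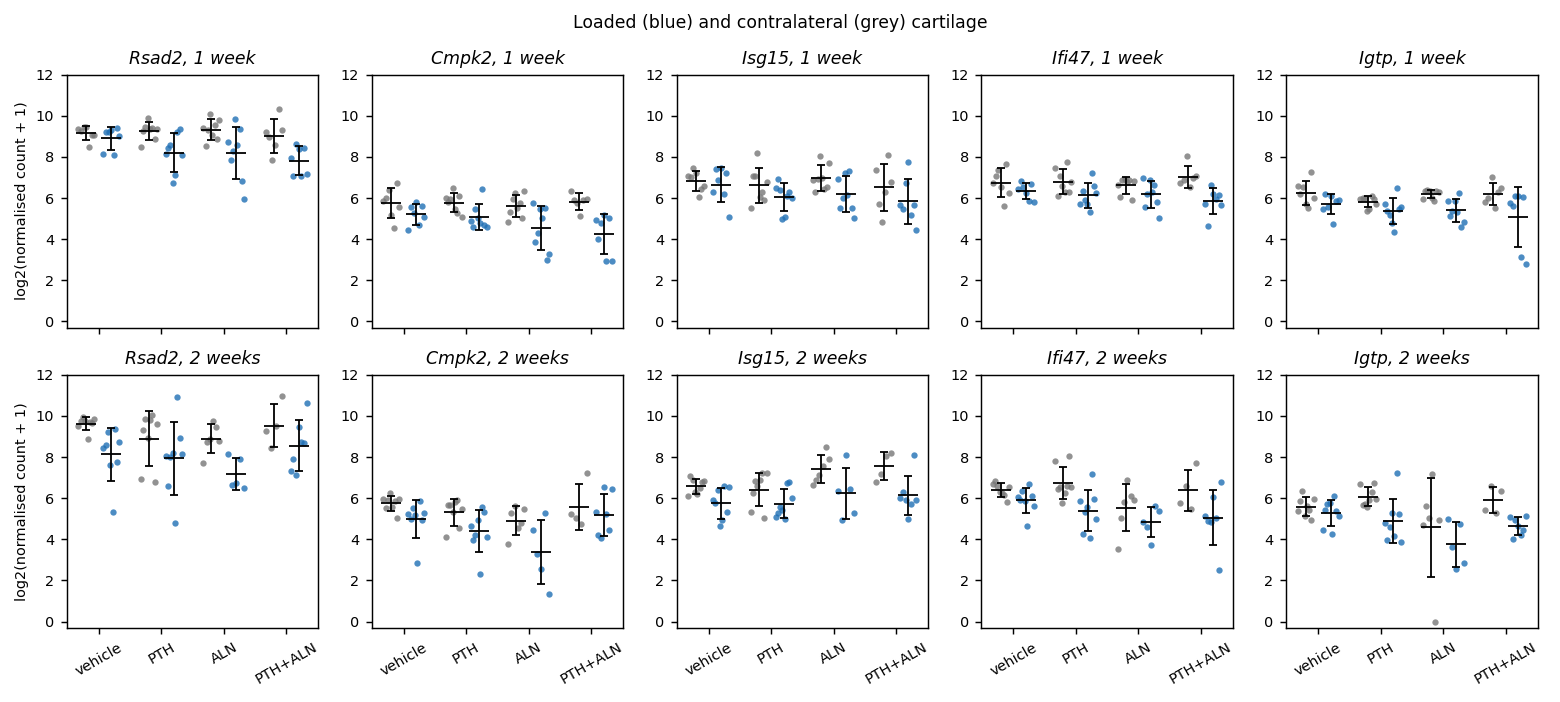
Cartilage of loaded (blue) and contralateral (grey) limbs at 1 and 2 weeks, for the 5 members lower at both times, in log2(normalised count + 1); each point is a library and bars give the mean and SD. Loaded means lay below contralateral means in each of the 4 treatments and both weeks for all 5 genes, with overlapping points.

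Among the GTPases, Ifi47 and Igtp fell at both times. Ifi47 fell by 0.67 ± 0.14 at 1 week (limma, adjusted p = 0.000172) and 0.97 ± 0.24 at 2 weeks (adjusted p = 0.00205). Igtp fell by 0.73 ± 0.17 (adjusted p = 0.000725) and 0.90 ± 0.28 (adjusted p = 0.0154) at the same times. The chemokine Cxcl9 fell at 2 weeks. Its contralateral range was 3.60 to 5.42 in vehicle, 3.96 to 7.41 in PTH and 2.65 to 5.46 in alendronate mice, and 4.92, 4.96, 5.10 and 5.71 in PTH then alendronate. Loaded Cxcl9 was 3.31 to 5.03, 1.97 to 6.60, then 0, 0, 0.97, 3.40 and 5.45 in alendronate, and 1.97 to 5.77 in PTH then alendronate. The vehicle groups overlapped almost wholly, and the other loaded groups reached far lower. The averaged difference was -1.45 ± 0.33 (limma, adjusted p = 0.00101), with 21 of 24 mice lower.

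Over both weeks 5 members were called at both times (Cmpk2, Ifi47, Igtp, Isg15 and Rsad2), 23 had a negative difference at both, and 5 a positive one at both. By role at 2 weeks, 6 of 21 effectors, 2 of 5 GTPases, 1 of 4 sensors, 1 of 2 chemokines and 0 of 3 transcription factors fell. Of the wider lists, 6 of 24 other type I targets and 7 of 21 interferon gamma targets fell at 2 weeks and 0 rose. The named ones with the smallest p were Ifi27l2a, a mitochondrial protein (-1.59 ± 0.22), Isg20 (-1.23 ± 0.26), Irf5, a transcription factor downstream of Toll-like receptors (-0.91 ± 0.20) and Irf1, an interferon gamma target and transcription factor (-0.65 ± 0.16). At 1 week 5 of 24 other type I targets fell and 3 rose, and 7 of 19 gamma targets fell and 1 rose. The genes with the smallest p were Isg20 (-0.92 ± 0.14), Ifi27l2a (-1.52 ± 0.24), Psmb8, a subunit of the immunoproteasome (-0.59 ± 0.12) and Socs3, an inhibitor of Jak kinases, which rose by 1.18 ± 0.22 (limma, adjusted p = 3.34e-05).

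Cell markers moved here too. Loaded cartilage had 9 of 13 neutrophil genes lower at 1 week (median -0.83) and 10 of 13 at 2 weeks (median -1.09), and 10 of 14 chondrocyte genes higher at both. The neutrophil list had group means of 10.9 to 11.1 on the contralateral and 10.1 to 10.6 on the loaded side at 1 week. Within groups its mean had r = 0.77 (n = 59) and 0.79 (n = 54) with Rsad2 and 0.61 and 0.43 with Isg15, as a description across libraries that share mice. With the mean of the 35 members its r was only 0.52 and 0.23. The T and natural killer cell list had 0.65 and 0.61 with that mean, and the B and plasma cell list 0.59 and 0.60. Plasmacytoid dendritic cell genes had 0.60 and 0.54, and macrophage genes 0.047 and -0.25. All 14 skeletal muscle genes were lower on the loaded side at 1 week (median -2.73), with single libraries between 2.84 and 12.7, and 0 of 14 passed at 2 weeks. Adipocyte genes were lower too, 12 of 12 at 1 week and 10 of 12 at 2 weeks. The part of these cells in the members' fall was not tested.

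Within single treatments fewer members passed. In vehicle mice, the plain test of loading, 0 of 35 passed at 1 week and 0 at 2 weeks, where 1.32% and 1.37% of genes passed either way. The member with the smallest p was Gbp2 at 1 week (-0.81 ± 0.31, limma, adjusted p = 0.239) and Rsad2 at 2 weeks (-1.49 ± 0.54, adjusted p = 0.181). Isg15 in these mice differed by -0.19 ± 0.41 and by -0.82 ± 0.38.

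In PTH mice at 1 week 1 member rose, Rtp4, a chaperone of membrane receptors, against 2.39% of genes higher. It ran from 0 to 5.62 (median 4.62) on the contralateral and from 5.25 to 6.08 (median 5.70) on the loaded side. The rise of 1.47 ± 0.38 (limma, adjusted p = 0.0193) rested on 1 contralateral library: without the right library replicate 1, 0 members passed and the difference was 0.87. At 2 weeks in PTH mice 3 members fell, Trim30a (-0.995 ± 0.28, adjusted p = 0.0220), Irf9 (-0.90 ± 0.27, adjusted p = 0.0381) and Ifi47 (-1.36 ± 0.43, adjusted p = 0.0494), against 1.28% of genes lower, and the median over the 35 was -0.83.

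In alendronate mice Rsad2 (-1.14 ± 0.34, limma, adjusted p = 0.0307) and Cmpk2 (-1.09 ± 0.34, adjusted p = 0.0389) fell at 1 week, against 2.04% of genes lower, and Trim30a, a brake on Toll-like receptor signalling, fell at 2 weeks (-1.24 ± 0.33, adjusted p = 0.0178), against 2.38%. In PTH then alendronate mice 5 members fell at 1 week, against 3.29% of genes lower: Cmpk2 (-1.56 ± 0.38, adjusted p = 0.00442), Ifi47 (-1.18 ± 0.30, adjusted p = 0.00623), Rsad2 (-1.20 ± 0.39, adjusted p = 0.0326), Irf9 (-0.77 ± 0.25, adjusted p = 0.0356) and Igtp. At 2 weeks in that group 0 passed.

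With replicate number as a block, which pairs the limbs of a mouse in 28 of 29 shared numbers at 1 week and 24 of 24 at 2 weeks, 5 member calls were made in single treatments instead of 12: 0 in PTH, 2 in alendronate and 0 in PTH then alendronate mice at 1 week, and 1 in PTH and 0 in alendronate mice at 2 weeks. The other 2 were lower in vehicle mice at 2 weeks, where 0 passed without the block. With the block, 569 of all 14729 genes were lower in alendronate and 9 in PTH then alendronate mice at 1 week, and 176 were higher in PTH mice. At 2 weeks 472 of 15187 genes were lower in vehicle, 63 in PTH and 0 in alendronate mice. Each member count is 0, 1 or 2 of 35, too few to set against these counts over all genes, and the shares were not tested. Leaving out 1 library moved these counts widely, to 0 in alendronate mice at 1 week without the left replicates 2, 7 or 8 or the right replicates 4, 6 or 8. In PTH then alendronate mice 2 passed without either limb of replicate 5, and 3 without either limb of replicate 2 or the left replicate 7. In PTH mice at 2 weeks 0 passed without the right replicates 1 or 7 or the left replicates 2 or 5. The averaged counts stayed between 5 and 8 at 1 week and between 7 and 13 at 2 weeks when any 1 library was left out. Whether the loading response differed between treatments was tested directly in 22 comparisons: 0 of 35 members passed in any, where 0.00216% of all gene tests passed. At the looser cut of an unadjusted p under 0.05, 36 of 770 member tests passed. The share of all genes there is not given, so this count is not read as a result about the members. A call in 1 treatment is therefore not shown to be particular to it.

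Outside cartilage, loading moved few members. In the remaining 23 comparisons of loading within a treatment 0 members passed. They were PTH then alendronate cartilage at 2 weeks and those outside cartilage, and across them 0.0519% of gene tests passed. Averaged over treatments, 0 of 35 passed in cortical and cancellous bone at both times and in the node at 1 week, where 0.352% of gene tests passed. At the looser cut of an unadjusted p under 0.05, 14 of 175 member tests passed. The share of all genes there is not given, so this count is not read as a result about the members. By edgeR 1 member passed in cortical bone at 2 weeks. In cortical bone at 1 week 29 of 35 differences were negative (median -0.22), and at 2 weeks 23 of 35 (median -0.051). In cancellous bone the medians were 0.11 and -0.11. The medians over all genes are not given there. Over the 84 comparisons of the design, TMM scaling moved the all-gene median by -0.24 to 0.19, and by over 0.1 only in bone at 1 week. Member medians of this size are therefore uncertain. The comparison in PTH then alendronate bone at 1 week was not made, since 1 loaded library was left. The averages in bone at 1 week therefore cover only the other treatments.

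In the lymph node at 2 weeks 2 members were higher on the loaded side when averaged over treatments, Irf7 and Ifi35, against 1.84% of genes higher. Irf7 ran on the contralateral side from 5.25 to 6.96 in vehicle, 4.34 to 6.84 in PTH, 4.84 to 6.34 in alendronate and 4.53 to 6.70 in PTH then alendronate mice. On the loaded side it ran from 5.77 to 6.80, 6.00 to 8.52, 5.13 to 7.12 and 4.94 to 8.09. The ranges overlapped in every treatment, and the loaded side was higher in 21 of 26 mice. The difference was 0.62 ± 0.18 (limma, adjusted p = 0.0334). Ifi35, a leucine zipper protein that binds Nmi, rose by 0.45 ± 0.13 (adjusted p = 0.0303), with 17 of 26 mice higher. Without the right vehicle library replicate 1, the right PTH libraries replicate 2 or 6, or the left PTH library replicate 2, 0 members passed. With the left alendronate library replicate 8 left out, 4 rose and 1 fell. Without the right PTH then alendronate replicate 4 or the left replicate 5, 1 passed.

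**Figure D3:**
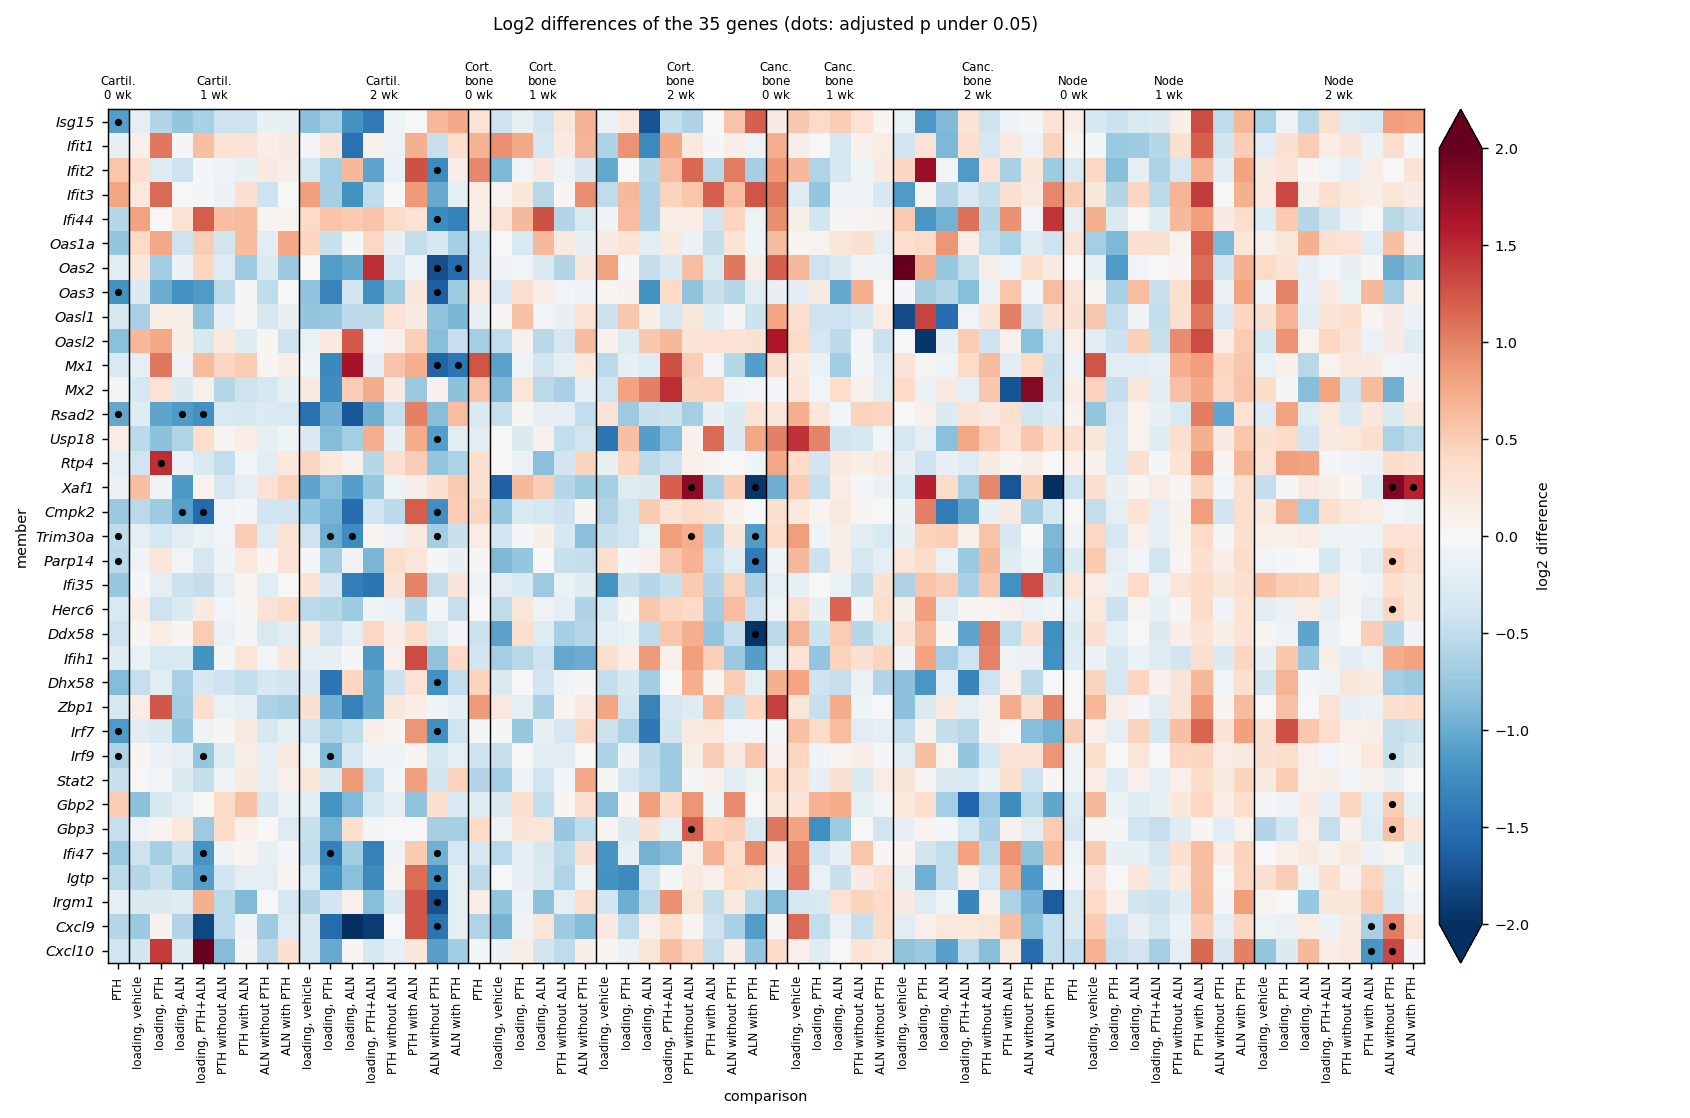
Log2 differences of the 35 members (rows) in the comparisons of loading, PTH and alendronate (ALN) in each tissue and week (columns), red for higher and blue for lower, capped at 2; dots mark an adjusted p under 0.05. The dots gather in cartilage, where most are blue, and in cortical bone and node at 2 weeks.

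Drug effects were tested with both limbs averaged, in 28 comparisons after loading. In 21 of them 0 members passed, where 0.317% of gene tests passed. At the looser cut of an unadjusted p under 0.05, 83 of 735 member tests passed, and the share of all genes there is not given. That share can be large. In the node at 1 week, without the mouse of the highest library, it ran from 4.07% to 18.4% over the drug comparisons. The member count at this cut is therefore not read as a result about the members. The 7 with a call were all at 2 weeks: 2 in cartilage, 2 in cortical bone and 3 in the node. They held 34 calls in all, and fewer when a single limb was tested (16 in the loaded and 10 in the contralateral limb).

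In cartilage at 2 weeks 14 of 35 members were lower with alendronate than with vehicle in mice without PTH, where 14.6% of all genes were lower. Irgm1, a GTPase that guards autophagy, ran from 1.96 to 3.91 (median 3.29; 16 libraries of 8 mice) in vehicle and from 0 to 4.02 (median 1.04; 11 libraries of 7 mice) in alendronate mice. The alendronate group overlapped the vehicle group and reached down to 0. The difference was -1.74 ± 0.39 (limma, adjusted p = 0.00116). Oas2 ran from 1.47 to 3.94 (median 2.87) and from 0 to 3.70 (median 0), a difference of -1.75 ± 0.43 (adjusted p = 0.00222). The alendronate libraries were shallower, with 453003 to 1944703 reads against 954702 to 2684094 in vehicle mice. Low genes reach 0 more easily in shallow libraries, and the part of depth in these differences was not tested.

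Mx1, a dynamin-like GTPase, ran from 0.68 to 3.36 (median 2.73) and from 0 to 3.92 (median 0), a difference of -1.60 ± 0.42 (limma, adjusted p = 0.00430), and Cmpk2 fell by 1.22 ± 0.35 (adjusted p = 0.00950). The other 10 were Igtp, Oas3, Trim30a, Cxcl9, Irf7, Dhx58, Ifit2, Ifi47, Ifi44 and Usp18. With PTH, 2 of 35 were lower with alendronate, Oas2 (-1.52 ± 0.43, adjusted p = 0.0203) and Mx1 (-1.44 ± 0.43, adjusted p = 0.0264), against 3.98% of genes. Oas2 ran from 0 to 3.94 (median 2.52) in PTH mice and from 0 to 3.59 (median 0.70) in PTH then alendronate mice.

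Markers of other cells moved with these differences, and their part was not tested. All 14 skeletal muscle genes were higher with alendronate without PTH (median 3.28), with a mean level of 6.36 to 11.2 against 3.43 to 9.96 in vehicle mice, and 5 of 12 T and natural killer cell genes were lower (median -1.13). The code series also followed alendronate exactly in cartilage and node at 2 weeks, so drug and series cannot be told apart. In the same comparison Bst2, a surface protein that tethers budding viruses, rose by 2.20 ± 0.31, while Tlr7, a sensor of single-stranded RNA, fell by 1.90 ± 0.36, Socs1, an inhibitor of Jak kinases, fell by 2.05 ± 0.52 and Ifngr2, a chain of the interferon gamma receptor, fell by 1.19 ± 0.31. Of 24 other type I targets 3 rose and 2 fell, so the wider list did not move one way. Without the left alendronate library replicate 3, 7 members passed instead of 14. With PTH 1 passed without either limb of PTH then alendronate replicate 6.

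In cortical bone at 2 weeks 3 members were higher with PTH than with vehicle in mice without alendronate, against 4.41% of genes higher. Xaf1, a partner of an inhibitor of apoptosis, ran from 0 to 3.26 (median 1.405; 16 libraries of 11 mice) in vehicle and from 0 to 5.56 (median 2.97; 15 libraries of 9 mice) in PTH mice. The difference was 1.796 ± 0.42 (limma, adjusted p = 0.0116). Gbp3 rose by 1.22 ± 0.35 (adjusted p = 0.0307), with 0 to 4.42 in vehicle and 3.12 to 5.44 in PTH libraries, and Trim30a by 0.73 ± 0.22 (adjusted p = 0.0369). Of 24 other type I targets 7 rose and 1 fell. The smallest p values were those of Mndal, a nuclear DNA-binding protein (1.05 ± 0.21), Slfn8, a Schlafen family protein (1.53 ± 0.38), Ube2l6, the enzyme that carries Isg15 to its targets (-1.37 ± 0.36) and Sp100, a nuclear body protein (1.46 ± 0.38). Without the right vehicle replicate 4, or the left PTH replicates 2 or 4, 1 member passed.

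When alendronate followed PTH, 4 members were lower in cortical bone than after PTH alone, against 6.03% of genes lower. Ddx58, the sensor RIG-I, ran from 5.18 to 7.04 (median 5.82) in PTH mice and from 2.10 to 5.23 (median 4.29; 9 libraries of 7 mice) in PTH then alendronate mice, so the ranges all but separated. The difference was -1.96 ± 0.36 (limma, adjusted p = 0.000528). Trim30a fell by 1.12 ± 0.27 (adjusted p = 0.00588), Parp14, an ADP-ribosyltransferase, by 1.39 ± 0.35 (adjusted p = 0.00719) and Xaf1 by 1.94 ± 0.53 (adjusted p = 0.0139). Xaf1 and Trim30a were thus called in both comparisons, which share the PTH mice. Here too alendronate cannot be told apart from the run of codes, which began with A or B only in alendronate libraries.

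In that comparison 6 of 11 osteoblast and osteocyte genes were lower and 6 of 14 muscle genes higher. The mean osteoblast and osteocyte level was 6.59 to 7.81 in PTH then alendronate libraries against 6.69 to 8.55 in PTH libraries, and its part was not tested. In the loaded limb alone 0 of the 35 passed in either cortical comparison.

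In the lymph node at 2 weeks alendronate without PTH came with 7 members higher and 1 lower, where 11.5% of genes were higher and 17.3% lower. Cxcl9 ran from 6.00 to 7.81 (median 6.94; 13 libraries of 8 mice) in vehicle and from 7.55 to 8.59 (median 8.12; 16 libraries of 8 mice) in alendronate mice. The ranges overlapped only at the upper end of the vehicle group. The difference was 1.05 ± 0.14 (limma, adjusted p = 3.73e-08). Xaf1 ran from 0.83 to 2.94 and from 3.03 to 4.65, so all alendronate libraries lay above all vehicle libraries, a difference of 1.85 ± 0.28.

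Cxcl10, the second chemokine of the group, ran from 2.12 to 5.60 (median 3.89) and from 4.01 to 6.91 (median 5.01), a difference of 1.33 ± 0.29 (limma, adjusted p = 0.000424). Irf9, the DNA-binding subunit of the interferon complex, was the member that fell, by 0.44 ± 0.11 (adjusted p = 0.00120), from 7.85 to 8.80 down to 7.59 to 8.41. Gbp2, Parp14, Gbp3 and Herc6, the mouse ligase for Isg15, rose by 0.44 to 0.59. The wider interferon gamma list had 8 of 21 higher and 2 lower. The genes of smallest p there and among the other type I targets were Bst2 (3.73 ± 0.41), Gbp7, a guanylate-binding protein (1.44 ± 0.16), Slfn5 (1.35 ± 0.20) and Irf3, the constitutive partner of Irf7 (-2.18 ± 0.37).

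With PTH, Xaf1 was the 1 member higher with alendronate (1.55 ± 0.28, limma, adjusted p = 3.01e-05), where 8.81% of genes were higher. It ran from 0.82 to 3.30 in PTH and from 2.26 to 5.02 in PTH then alendronate nodes. In alendronate mice, PTH pretreatment came with lower Cxcl9 and Cxcl10, the 2 members called, where 0.502% of genes were lower. Cxcl9 ran from 7.55 to 8.59 without and from 6.87 to 7.85 with PTH (median 7.55), a difference of -0.65 ± 0.13 (adjusted p = 0.00583), and Cxcl10 from 4.01 to 6.91 and 2.76 to 4.90 (median 4.12), a difference of -1.16 ± 0.28 (adjusted p = 0.0216). This comparison lies within 1 code series. Bst2 moved the same way (-1.92 ± 0.39, adjusted p = 0.00583), and of the macrophage list 0 of 10 passed. Macrophage genes were higher with alendronate without PTH, 4 of 10, at a mean level of 5.29 to 7.53 against 5.78 to 6.92, and their part was not tested.

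The node at 1 week held a pattern that passed no threshold. With PTH then alendronate against alendronate, all 35 differences were positive, with a median of 0.72 against -5.42e-05 over all genes, 23 had an unadjusted p under 0.05 (6.06% of all genes did), and 0 passed after adjustment. Isg15 ran from 3.68 to 5.27 (median 4.47; 12 libraries of 8 mice) in alendronate and from 4.23 to 9.96 (median 5.20; 12 libraries of 7 mice) in PTH then alendronate nodes, a difference of 1.303 ± 0.43 (limma, adjusted p = 0.670). Oas1a had the smallest p, at 1.21 ± 0.32 (adjusted p = 0.670).

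Single mice carried much of it. In 1 mouse the contralateral node had a mean over the 35 members of 8.71 and Isg15 at 9.96, and its loaded-side node a mean of 6.45 and Isg15 at 6.62. Another mouse had means of 6.58 on the contralateral and 6.03 on the loaded side, and 1 more, with a loaded-side library only, had 7.12. The other 4 mice stayed between 5.08 and 5.51. Without the mouse of the highest library, 34 of 35 differences were positive, the median was 0.38 and 9 had an unadjusted p under 0.05 (4.98% of all genes did). Against PTH alone, all 35 were positive with a median of 0.43, and 26 of 35 with 0.094 without that mouse. The loading difference in PTH then alendronate mice changed sign: 3 of 35 members were positive with a median of -0.24, and 31 of 35 with 0.29 without that mouse. Its difference from the loading response of vehicle mice went from a median of -0.50 with 5 positive to -0.0012 with 17 positive. In both, 0 members passed with or without that mouse.

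**Figure D4:**
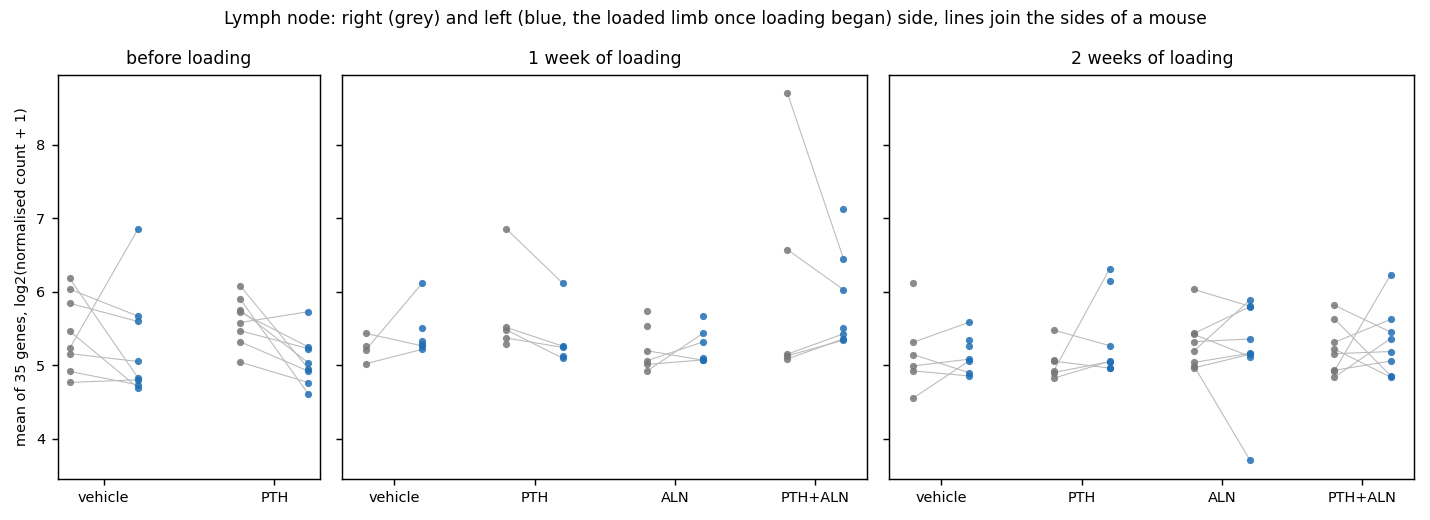
Mean of the 35 members in each lymph node library, in log2(normalised count + 1), right side in grey and left side in blue, with lines joining the sides of a mouse, by treatment and week. Most nodes lay near 5, and a few mice stood higher, up to 8.71 in a PTH then alendronate mouse at 1 week.

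Whether the members moved together was described within each tissue, and the values were not tested between tissues. The deviation of each member from its group mean was correlated with the mean deviation of the other 34, as a description across libraries that share mice, scaling and depth. In the node the median r over members was 0.72 before loading (n = 32), 0.84 at 1 week (n = 44) and 0.61 at 2 weeks (n = 58). In cartilage it was 0.48, 0.36 and 0.32, in cortical bone 0.29, 0.36 and 0.40, and in cancellous bone 0.43, 0.37 and 0.14. In the node at 1 week all pairs of members were positive (100%), with a median pair r of 0.69. A few libraries stood apart there, with means over the members of 8.71, 7.12 and 6.85, and no r was computed without them. In cancellous bone at 2 weeks 57.5% of pairs were positive, with a median pair r of 0.046. The members' abundance was also higher in the node, and its part in these r values was not tested.

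**Figure D5:**
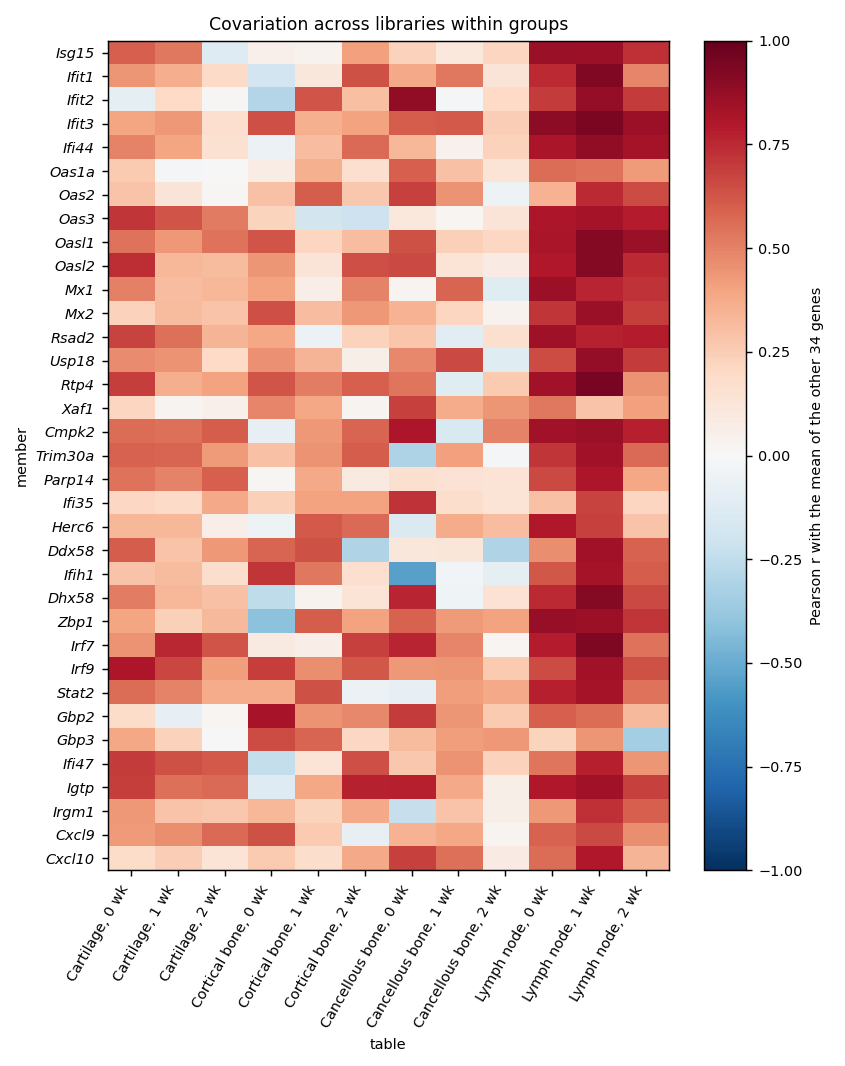
Pearson r between each member (rows) and the mean of the other 34, across libraries after removing group means, in each tissue and week (columns), from -1 (blue) to 1 (red). The 3 node columns are red almost throughout, with medians of 0.72, 0.84 and 0.61, and the bone and cartilage columns are paler.

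Isg15 was followed within mice, over 30 relations: 12 between the limbs of a mouse and 18 between tissues, with p adjusted over the 30. Between limbs 0 of 12 passed. The highest was the node at 1 week, with r = 0.51 and rho = 0.45 (16 mice, permutation p = 0.0392, adjusted p = 0.235, and rho p = 0.0829), and r was 0.42 without the 2 farthest mice. Between tissues 4 of 18 passed for Pearson's r and 0 for Spearman's rho.

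Cortical and cancellous bone at 2 weeks had r = 0.81 and rho = 0.85 (10 mice, permutation p = 0.000430, adjusted p = 0.0129; rho p = 0.00303, adjusted p = 0.0909), and r was 0.77 without the 2 farthest. Cartilage and cancellous bone before loading had r = 0.83 and rho = 0.73 (9 mice, exact permutation p = 0.00446, adjusted p = 0.0446; rho p = 0.0311), and r was 0.81 without them. Cartilage and cortical bone at 1 week had the opposite sign, with r = -0.59 and rho = -0.56 (22 mice, permutation p = 0.00435, adjusted p = 0.0446; rho p = 0.00867), and r was -0.58 without them. Cartilage and node at 1 week had r = 0.52 and rho = 0.39 (27 mice, permutation p = 0.00653, adjusted p = 0.0490; rho p = 0.0462), and r fell to 0.34 without the 2 farthest mice. These r values use levels from which group means were removed, and they differed in sign between tissue pairs.

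Over all 84 comparisons of the design, 53 member calls were made, 12 up and 41 down, in 13 comparisons. Of the 35 members 25 were called at least once. The share of all genes called at least once is not given, so this count is not read as particular to the members. Alendronate without PTH in the node at 2 weeks alone had 11.5% of all genes higher and 17.3% lower. The 10 never called were Ifi35, Ifih1, Ifit1, Ifit3, Mx2, Oas1a, Oasl1, Oasl2, Stat2 and Zbp1, although Ifi35 and Zbp1 were called when loading was averaged.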

How the data were processed

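RNA from mouse cartilage, cortical bone, cancellous bone and lymph node was sequenced from the 3' end, and the authors deposited 1 table of normalised counts (a signal scaled per library) for each of 4 tissues and 3 times, 12 tables in all. Trimmomatic 0.39, STAR, edgeR and the mm10 build are named in the submitters' processing notes, without roles. Whole reads were recovered from the steps of each library, within 0.01 of a whole number. Entries naming no gene held at most 0.295% of reads and were left out, and 0 columns lacked a sample. Kept libraries held 127524 to 3557793 reads, which sets the precision of low members; the 28 libraries under 100000 reads were left out.

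One model per table was fitted by limma (version 3.58.1, under R 4.3.3) to log2(value + 1), with the variance trended on the mean, over genes at 1 CPM or more in at least 3 libraries or the smallest group. Groups were treatment by limb, the mouse was a random block (statmod 1.5.0, correlation from 2000 genes), and the code series was a term in bone after loading. p was adjusted over all genes by Benjamini-Hochberg, with a threshold of 0.05, and contrasts needed 2 libraries a group. The mouse is inferred from title codes, so p-values depend on that inference. The correlation within a mouse ran from 0.00074 (cancellous bone, 1 week) to 0.097 (node, 2 weeks). Limbs of 1 mouse thus counted almost as separate samples, also in drug comparisons, where the drug reached both limbs. Same-numbered limbs came from 1 mouse in 28 of 29 and 24 of 24 cartilage numbers after loading, and in 106 of 155 shared numbers over all tables. The replicate block was therefore read as a pairing of limbs in cartilage only. The random block, the Isg15 correlations and the counts of mice used the inferred mouse instead. Alternatives were edgeR 4.0.16 on the recovered counts, TMM scaling, all libraries, no filter, a pseudocount of 0.25, array weights, other blocks, single limbs and leaving out each library. The fits were tested on simulated counts. Correlations of Isg15 used permutation tests (scipy 1.17.1, 100000 resamples, exact under 10 mice).

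All members were accounted for; Isg15, Ifit3, Irf7, Oasl2, Gbp2 and Cxcl9 were described in every tissue before loading, and otherwise the 4 members of smallest p in a comparison, with at most 4 genes of the wider lists. For 1 gene of those lists the values are not reported here. The members, the gene lists and these rules were chosen with earlier results of these data known. Promoters are from RefSeq (GRCm38.p6) and gene positions from GENCODE on GRCm38.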

Additional observations from a re-analysis of the deposited data

Results flagged for a closer look

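Groups of 4 to 10 libraries were examined once for the mean of the 35 members and once for Isg15, 142 examinations in all. The highest or lowest library lay far from the others in 18 of them, 10 for the mean and 8 for Isg15. Some libraries were flagged by both measures, and Isg15 is part of the mean. Chance alone marks about 1 examination in 20. All values are log2(normalised count + 1), and their causes were not tested.

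In cartilage at 2 weeks, Isg15 in the left limb of PTH then alendronate replicate 6 was 8.11, with the others between 4.99 and 6.30. In cortical bone the mean of the members was 3.80 in the left vehicle replicate 2 before loading (others 4.40 to 4.48) and 1.84 in the left vehicle replicate 5 at 2 weeks (others 3.56 to 3.98). In cancellous bone before loading that mean was 4.96 in the left PTH replicate 3 (others 4.42 to 4.50), and Isg15 was 4.20 in the left vehicle replicate 2 (others 5.97 to 6.16). In cancellous bone at 2 weeks the mean was 5.14 in the right vehicle replicate 10 (others 3.98 to 4.53). There Isg15 was 8.49 in the right PTH replicate 6 (others 5.79 to 6.92) and 4.47 in the left alendronate replicate 1 (others 5.88 to 6.41).

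In the lymph node before loading the mean was 6.85 in the left vehicle replicate 8 (others 4.69 to 5.67). At 1 week 1 PTH mouse stood apart on both sides: its left node had a mean of 6.12 (others 5.09 to 5.26) and Isg15 at 6.26 (others 4.40 to 4.83), and its right node a mean of 6.85 (others 5.29 to 5.51) and Isg15 at 6.32 (others 4.89 to 5.19). The left vehicle replicate 4 had a mean of 6.12 (others 5.22 to 5.51). At 2 weeks the left alendronate replicate 8, a library of 153802 reads, had a mean of 3.70 (others 5.12 to 5.89) and Isg15 at 0 (others 5.12 to 6.58). The right alendronate replicate 5 had a mean of 6.03 (others 4.96 to 5.43), and Isg15 in the left PTH replicate 4 was 5.95 (others 3.16 to 4.36).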

How the results depend on the processing

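Without the mouse of the highest node library at 1 week, an alternative chosen after seeing the data, the median loading difference of PTH then alendronate mice went from -0.24 to 0.29, with 0 members called either way. The 7 members lower after PTH in cartilage became 0 with all libraries, 16 with array weights and 0 in left limbs only (6 in right), and 4 to 10 when 1 library was left out. The 12 loading calls in single treatments became 32 with array weights and 5 with the replicate block (9 to 15 leaving out 1 library). In cartilage at 1 week the call in PTH mice became 0 with edgeR, 3 with array weights and 0 with the replicate block (0 to 2); the 2 in alendronate mice became 0, 6 and 2, and 1 without the animal block (0 to 3); the 5 in PTH then alendronate mice became 3, 1 and 0 (2 to 7). At 2 weeks the 3 in PTH mice became 1 with all libraries, 14 with array weights and 1 with the replicate block (0 to 6), and the 1 in alendronate mice became 3 at a pseudocount of 0.25 and 0 with the replicate block (1 to 3). Averaged over treatments, cartilage had 5 to 8 and 7 to 13 calls, cortical bone had 0 to 1 at 1 week and 1 with edgeR at 2 weeks, and the node at 2 weeks had 0 to 5, and 1 with all libraries.

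The 34 treatment calls became 72 with array weights, 16 in loaded and 10 in contralateral limbs only (27 to 37 leaving out 1 library). Cartilage at 2 weeks, alendronate without PTH, went from 14 to 5 with edgeR, 4 in loaded and 2 in contralateral limbs (7 to 15), and with PTH from 2 to 1 with edgeR, 1 with array weights, 0 in loaded and 1 in contralateral limbs (1 to 3). Cortical bone at 2 weeks, PTH without alendronate, went from 3 to 6 with edgeR, 6 with array weights and 0 in either limb alone (1 to 4), and alendronate with PTH from 4 to 8, 9, 0 in loaded limbs and 2 without the code series (4 to 6). In the node at 2 weeks, PTH with alendronate went from 2 to 1 with all libraries, 1 in loaded and 0 in contralateral limbs (2 to 2), alendronate without PTH from 8 to 16 with array weights and 2 in contralateral limbs (7 to 11), and alendronate with PTH from 1 to 7 with edgeR, 10 with array weights, 2 without the animal block and 2 in loaded limbs (1 to 4). Interactions stayed at 0 (0 to 0). Isg15 relations between tissues passed in 2 with all libraries instead of 4. Single limbs hold fewer libraries; otherwise the cause was not tested. TMM scaling moved the median of all genes by -0.24 to 0.19, over 0.1 in 6 of 84 comparisons, all in bone at 1 week. Low members such as Oas1a are limited by depth.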
